A study of Mus musculus with 34 samples.

Results

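A set of 10 genes of the integrated stress response and of stress-linked liver hormones was followed across MYC-driven mouse liver tumors and livers that differed in Arid1a, which encodes part of the SWI/SNF machinery that moves nucleosomes. They were taken by symbol and not by a cutoff on their values, 10 of 47049 symbols, but with earlier results of these data known. The set holds the transcription factors Atf4, Atf5 and Ddit3, the pseudokinase gene Trib3, the glutathione-degrading enzyme gene Chac1, the amino acid synthesis genes Asns and Psat1, and the secreted factors Fgf21, Gdf15 and Inhbe. All 10 were in the tables of mixed-strain tumors and Rag1-/- livers, and 9 were in the table of FVB tumors, which does not list Fgf21.

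In the integrated stress response, kinases that sense unfolded protein, amino acid shortage, viral RNA or heme lack phosphorylate the translation factor eIF2, which lowers protein synthesis as a whole and favors translation of a few messages, among them those of ATF4, ATF5 and CHOP, the protein that Ddit3 encodes. ATF4 then switches on genes for amino acid supply and stress adaptation, including Asns, Psat1, Chac1, Trib3 and Ddit3. Much of this control acts on translation, which mRNA levels do not measure. Hepatocytes also release hormones under such stress: FGF21, which acts on adipose tissue and brain through beta-klotho, GDF15, which acts on the hindbrain receptor GFRAL, and the activin E subunit encoded by Inhbe, a gene expressed mostly in liver.

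The tumors came from LAP-MYC mice, in which a liver promoter (LAP) drives the tetracycline transactivator and the TRE-MYC transgene comes on when doxycycline is taken out of the drinking water, and were collected at death. WT tumors carried floxed Arid1a without Cre (LAP-tta-Arid1aflfl;TRE-MYC), Het tumors carried 1 floxed allele with the albumin-promoter Cre (Arid1afl/+;Alb-cre), and Homo tumors carried both (Arid1afl/fl;Alb-cre). There were 8 WT and 8 Het libraries from a C57/B6, 129 and FVB mix, at about 90 days of age in both groups. In FVB mice there were 4 WT libraries at about 55 days, 4 Het at about 70 days and 4 Homo at about 100 days. The other 6 libraries were livers of Rag1-/- LAP-MYC mice without floxed Arid1a in their label (LAP-tta-WT;TRE-MYC, FVB, about 42 days), which lack mature B and T cells, taken 14 days after an adenovirus with Cre (3 ad-Cre) or with human ARID1A (3 ad-ARID1A). Alb-Cre was present in every Het and Homo group and in no WT group, age rose with the number of lost alleles in FVB, and only the Rag1-/- controls received Cre by virus, so these cannot be told apart from Arid1a. The labels call the source of the Rag1-/- samples tumor tissue in one field and liver in another, and the description of each ad-ARID1A sample points to a column named for ad-Cre, against its title, its genotype and the table's own headers. Nothing in them ties a library to its own mouse, so a test weighs a difference against variation among libraries that may be partly technical.

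Depth was 2.28 to 5.28 M reads per mixed-strain library, 6.64 to 12.04 M per FVB library and 8.72 to 10.61 M per Rag1-/- library. All 10 hepatocyte markers were above 0 in every group, and their summed level was 3106 to 14411 CPM (reads of a gene relative to the library's depth) in tumors and 71374 to 89550 CPM in Rag1-/- livers. Arid1a was 314 to 490.1 CPM in mixed-strain WT tumors and 249.7 to 330 in Het tumors (overlapping), and it overlapped between groups in the other tables too. Gene-level reads include exons outside the floxed part, and human ARID1A has no row of its own, so these values do not test the labels. Some libraries stood apart in markers of other cell types. FVB WT 1 and WT 2 held 508.7 and 520.9 CPM of summed erythroid markers against at most 103 in the other FVB tumors, mixed-strain Het 5 held 477.5 CPM of biliary markers against at most 188.9, and mixed-strain WT 2 held 1027 CPM of macrophage markers against at most 656.5. In bulk tissue, fewer cells of a type and less RNA per cell cannot be told apart.

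ATF4 with a C/EBP partner binds a composite element commonly written TGATGNAA, and the sequence before the start of each gene was searched for it because these genes are named together as ATF4 targets. In RefSeq promoter windows of GRCm38.p6 (250 bases before to 50 after a transcript start, both strands), 5 of the 10 genes held the motif, against 1219 of 27025 genes (4.51%). On the gene's own strand it reads TTGCATCA in Chac1, Fgf21 and Inhbe, beginning 193, 139 and 181 bases before the start, TGATGAAA in Asns, beginning 23 bases before it, and TTACATCA in Trib3, 14 bases after it. Atf4, Atf5, Ddit3, Psat1 and Gdf15 had no match in their windows, and the full cAMP-response palindrome TGACGTCA was in 2.03% of genes and in none of the 10. The 4 upstream stretches that hold a match are shown 5′ to 3′ on the gene's strand, with the motif in capitals. Inhbe comes first because it is the gene of the 10 that passed in a comparison. They lie at chr10:127351849-127352098 (minus strand, Inhbe), chr2:119350992-119351241 (plus, Chac1), chr7:45615491-45615740 (minus, Fgf21) and chr6:7693210-7693459 (minus, Asns). A match describes letters, no binding was measured, and a part of the motif in any difference was not tested. The genes were chosen as a set named for ATF4, so a share above that of all genes follows in part from the choice and is no result of these libraries.
Inhbe: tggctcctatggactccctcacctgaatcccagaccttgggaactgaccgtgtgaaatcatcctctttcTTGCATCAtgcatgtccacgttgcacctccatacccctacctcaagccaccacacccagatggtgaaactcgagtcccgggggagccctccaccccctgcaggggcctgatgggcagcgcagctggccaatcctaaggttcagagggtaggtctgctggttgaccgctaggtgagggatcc
Chac1: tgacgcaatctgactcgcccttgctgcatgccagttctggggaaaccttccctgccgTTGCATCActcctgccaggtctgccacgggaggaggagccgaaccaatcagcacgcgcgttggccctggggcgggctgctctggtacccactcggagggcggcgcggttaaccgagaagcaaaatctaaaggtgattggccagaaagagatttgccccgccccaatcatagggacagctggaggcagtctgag
Fgf21: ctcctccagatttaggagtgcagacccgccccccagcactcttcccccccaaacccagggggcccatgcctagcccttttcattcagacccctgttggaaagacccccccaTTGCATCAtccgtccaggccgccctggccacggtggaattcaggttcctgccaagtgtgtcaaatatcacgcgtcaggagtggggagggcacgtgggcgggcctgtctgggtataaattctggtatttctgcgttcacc
Asns: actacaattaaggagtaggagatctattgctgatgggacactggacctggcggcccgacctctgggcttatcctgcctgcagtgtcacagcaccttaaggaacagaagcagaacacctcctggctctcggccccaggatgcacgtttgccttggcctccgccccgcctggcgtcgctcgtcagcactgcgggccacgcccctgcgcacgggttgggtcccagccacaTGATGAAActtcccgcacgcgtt

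One of the 10 genes passed the test in 1 of 5 comparisons: Inhbe rose in Rag1-/- livers given ad-ARID1A, to 71.1 CPM on average from 38.4 in ad-Cre livers. That call was lost in 4 of 6 cases when 1 library was left out, and without limma's variance trend (adjusted p = 0.151). None of the 9 measured in tumors passed in a comparison of Arid1a genotypes. Differences are log2 fold changes with their standard error, a value of 1 being a doubling, from limma with Benjamini-Hochberg adjustment over all genes of a table and a threshold of 0.05. Groups are called separated when no library of one lies within the range of the other.

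**Figure D1:**
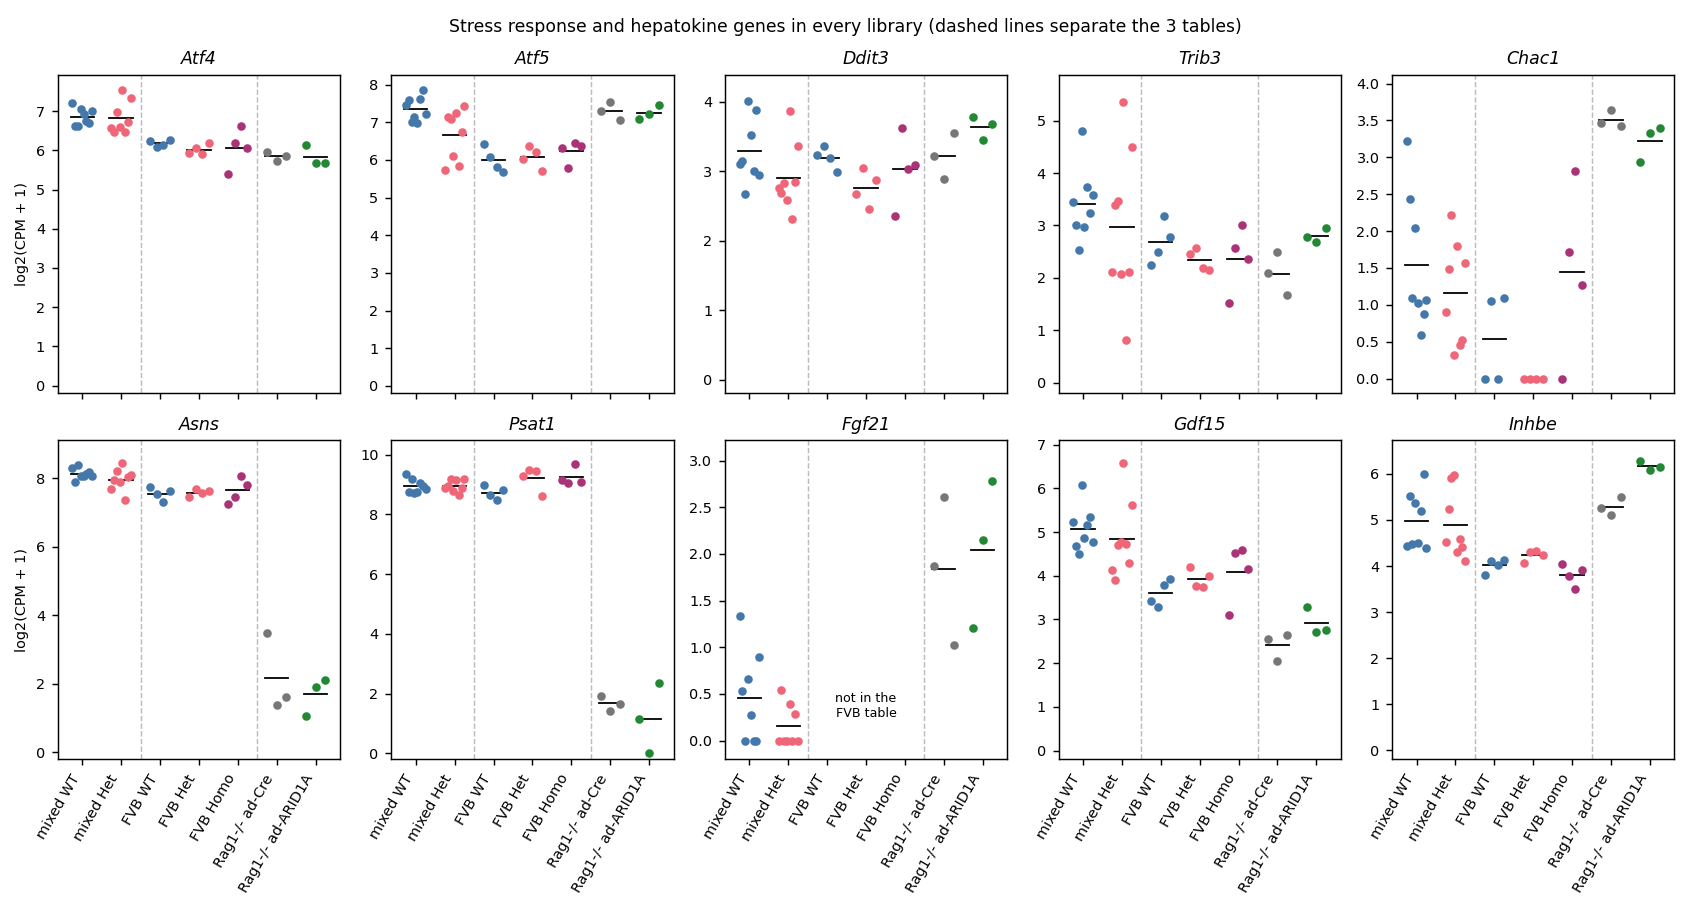
Level of each of the 10 genes in every library, as log2(CPM + 1) on the vertical axis, by group on the horizontal axis; each point is a library, each bar the group mean and each dashed line a border between tables. Asns and Psat1 lie far apart between tumors and Rag1-/- livers, while genotype groups within a table overlap for most genes.

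In mixed-strain tumors with 1 lost Arid1a allele, the stress response genes were mostly at slightly lower mean log2 levels than in WT, and none passed. Of the 9 tested genes, 8 were lower and 1 was higher (9 and 0 with libraries centred on their median), with a median difference of -0.24 (-0.44 without WT 2 and Het 5) against 0.05 over all 17552 genes, of which 56.1% were higher. Some of these signs were not stable. As each of 16 libraries was left out, Atf4 (-0.03) changed sign in 6 fits, Inhbe (-0.11) in 2 and Psat1 (0.02, the higher gene) in 6. Mean CPM was slightly higher in Het for Atf4 (117.7 against 116.8) and Trib3 (11.4 against 10.9). Several of these genes varied together among tumors, so the 9 directions are not independent. By limma, 0 of the 9 passed the adjusted threshold, where 0.16% of all genes did, and 1 (Atf5) had an unadjusted p under 0.05, where 15.8% did. None of the 9 was separated between the groups (0.137% of all genes were). Fgf21, with 0 to 4 reads in any library, fell below the filter.

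FVB tumors gave 0 passing genes in each of 3 comparisons. In Het against WT, 5 of the 9 were higher and 4 lower (4 and 5 with libraries centred on their median; median 0.03 against 0.02 over 16140 genes), 1 (Psat1) had an unadjusted p under 0.05 where 14.2% of all genes did, and none was separated where 6.88% were. The share of all genes that passed there was 0.0248%. In Homo against WT, 5 were higher and 4 lower (median 0.09 against -0.02), 2 (Psat1 and Chac1) were under 0.05 unadjusted where 10% of all genes were, and 1 (Psat1) was separated where 4.07% were; 0.0434% of all genes passed. In Homo against Het, 7 were higher and 2 lower (median 0.06 against -0.04), 2 (Chac1 and Inhbe) were under 0.05 unadjusted where 3.86% of all genes were, and 1 (Inhbe) was separated where 2.67% were. No gene of the table passed in that last comparison (0%, with 623 genes under 0.05 unadjusted). The 3 comparisons share libraries, and their values are therefore side by side and not independent.

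In Rag1-/- livers, ad-ARID1A against ad-Cre gave 5 higher and 5 lower genes of 10 (median 0.15 against 0.09 over 14074 genes, of which 66.0% were higher). Inhbe passed, 1 of 10, where 0.32% of all genes did (39 higher and 6 lower, 45 in all; 1 without the variance trend and 6 to 32 when single libraries were left out). At an unadjusted p under 0.05 there were 2 (Inhbe and Trib3) where 12.5% of all genes lay, and 4 genes were separated, Inhbe, Trib3 and Gdf15 higher and Chac1 lower, where 17.4% of all genes were.

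**Figure D2:**
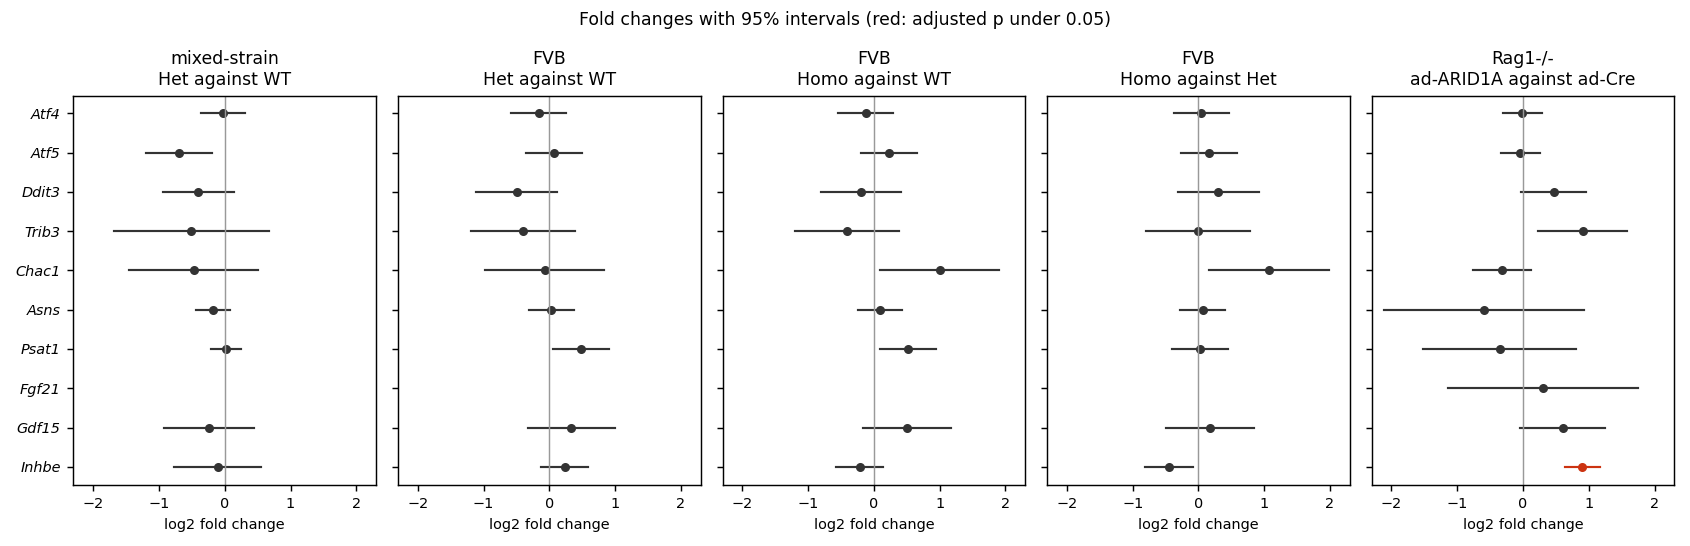
Log2 fold change of each gene in each of the 5 comparisons, as points with 95% confidence intervals from limma; the grey line marks no difference. Inhbe in Rag1-/- livers, at 0.90 and in red, is the one value that passed the adjusted threshold, and Fgf21 has a value in livers alone.

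Atf4, the central transcription factor, passed in no comparison, and no difference was larger than its error. In mixed-strain tumors it was 97.4 to 148 CPM in WT (median 114) and 87.7 to 184 in Het (median 100.5), a difference of -0.03 ± 0.16. FVB WT tumors had 74.0, 67.2, 69.5 and 76.1 CPM, Het tumors 59.7, 66.3, 59.3 and 71.5, and Homo tumors 41.4, 71.5, 97.0 and 65.3. Of the Het libraries 3 of 4 were below every WT library, and the Homo libraries spanned a 2.35-fold range around the narrow WT and Het values. Homo against WT was -0.12 ± 0.19 and Het against WT -0.16 ± 0.19. In livers Atf4 was 61.0, 52.4 and 56.5 CPM with ad-Cre and 69.1, 50.6 and 50.6 with ad-ARID1A (-0.01 ± 0.13, 95% interval -0.31 to 0.29).

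Atf5, a related factor with roles in the mitochondrial stress response, had the smallest p of the 10 in mixed-strain tumors. Its level was 126 to 231 CPM in WT (median 161) and 52.1 to 173 in Het (median 119.8), and the groups overlapped. Het 1, 4, 6 and 7, at 52.1, 68.1, 56.3 and 105 CPM, lay below every WT library, while the other 4 Het libraries lay within the WT range. The difference was -0.69 ± 0.24, with a limma p of 0.0101 and an adjusted p of 0.201, and it ran from -0.81 to -0.56 as each library was left out. Among FVB tumors, WT had 85.6, 66.3, 55.7 and 49.9 CPM, Het tumors 64.0, 81.6, 72.5 and 50.9, and Homo tumors 78.8, 53.8, 86.8 and 82.1. These groups overlapped, at 0.07 ± 0.20 in Het and 0.24 ± 0.20 in Homo against WT. Livers had 157, 185 and 133 CPM with ad-Cre and 135, 148 and 175 with ad-ARID1A (-0.04 ± 0.13).

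Ddit3 encodes CHOP, a factor of prolonged stress that can promote cell death. It was low in every group, 5.36 to 15.1 CPM in mixed-strain WT tumors and 3.99 to 13.6 in Het tumors (-0.40 ± 0.26, limma adjusted p = 0.448). FVB WT tumors had 8.40, 9.25, 8.11 and 6.92 CPM and Het tumors 5.35, 7.26, 4.47 and 6.32. Only the highest Het library reached into the WT range (-0.50 ± 0.28, limma adjusted p = 0.475). Homo tumors, at 4.14, 11.4, 7.16 and 7.52 CPM, covered both (-0.20 ± 0.28 against WT). In livers the 3 ad-ARID1A libraries had 12.7, 9.99 and 11.8 CPM and the ad-Cre libraries 8.28, 6.41 and 10.8, so that 1 control lay within the ad-ARID1A range (0.46 ± 0.22, limma adjusted p = 0.431).

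Trib3 encodes a pseudokinase that is induced by ATF4 and CHOP and feeds back on both. Among mixed-strain Het tumors it spread more than 97.7% of all genes, which were not matched for level. It ran from 0.753 CPM in Het 6 to 39.8 in Het 5 (52.8-fold, about 4 to 128 reads, SD 1.61 on the log2 scale), while WT libraries ran from 4.78 to 26.9. The group difference, -0.51 ± 0.56, was within that spread, and it ran from -0.87 without Het 5 to -0.15 without Het 6 as single libraries were left out (-0.93 without WT 2 and Het 5). In FVB tumors, WT libraries had 3.73, 4.66, 8.11 and 5.90 CPM, Het tumors 4.47, 4.96, 3.56 and 3.46, and Homo tumors 1.89, 4.92, 7.01 and 4.11. The Het and Homo groups both overlapped WT, at -0.40 ± 0.37 and -0.41 ± 0.37. Both were -0.77 without WT 1 and WT 2, the Homo value was -0.67 without Homo 3 and -0.04 without Homo 1, and both were near -0.2 without WT 3 (-0.20 in Het and -0.21 in Homo). Livers with ad-ARID1A had 5.90, 5.43 and 6.73 CPM and those with ad-Cre 3.27, 4.63 and 2.17, so the groups were separated. That difference was 0.90 ± 0.30, with a larger error than that of Inhbe, and it did not pass (limma adjusted p = 0.276). It ran from 0.62 to 1.17 as single libraries were left out.

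Chac1 encodes an enzyme that breaks down glutathione. In mixed-strain tumors it was at 1 to 22 reads per library, 0.505 to 8.32 CPM in WT and 0.248 to 3.66 in Het (-0.47 ± 0.47). In FVB tumors it was listed at 0, meaning at or below 1 CPM, in all 4 Het libraries and in WT 1 and WT 3, with 1.08 and 1.13 CPM in WT 2 and WT 4. Homo tumors had 0, 2.297, 6.02 and 1.40 CPM, 3 of 4 above every WT and Het library. The differences of Homo, 1.0 ± 0.42 against WT and 1.07 ± 0.42 against Het, did not pass (limma adjusted p = 0.451 and 1), and without Homo 3 they were 0.49 and 0.56. They lie on a scale floored at 1 CPM and are not fold changes of the RNA itself. In livers Chac1 was separated the other way from Trib3, with 10.1, 11.5 and 9.71 CPM under ad-Cre and 6.64, 9.06 and 9.51 under ad-ARID1A (-0.32 ± 0.20, limma adjusted p = 0.552).

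Asns, which makes asparagine, and Psat1, which carries out the transamination step of serine synthesis, were the genes in which tumors and livers were farthest apart. All 28 tumors had 151 to 346 CPM of Asns (median 238), while the 6 Rag1-/- livers had 1.09 to 10.3 (median 2.42). The lowest tumor was 14.7 times the highest liver. For Psat1 the tumors had 357 to 826 CPM (median 499) and the livers 0 to 4.08 (median 1.93), with the lowest tumor 87.4 times the highest liver. The remaining 8 genes overlapped between tumors and livers, with Fgf21 compared in 16 tumors alone. Medians of Atf4, Trib3 and Gdf15 were higher in tumors, and those of Atf5, Ddit3, Chac1, Fgf21 and Inhbe in livers. For Chac1 the medians were 9.61 CPM in livers and 1.06 in tumors, and for Fgf21 3.05 and 0.10. The overlap of these 2 genes rested on mixed-strain WT 1, at 8.32 CPM of Chac1 and 1.51 of Fgf21. The lowest livers had 6.64 and 1.04. These levels come from tables normalized separately, from tissues that also differed in age, virus and immune genotype, and carry no test. The lead in tumors is relative to tables in which summed hepatocyte markers were at 3106 to 14411 CPM against 71374 to 89550 in the livers; the part of that difference in these levels was not tested.

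Within tumors no difference in Asns passed. Mixed-strain WT libraries had 236 to 337 CPM (median 275) and Het libraries 163 to 346 (median 256), a difference of -0.18 ± 0.13. Among the WT libraries Asns varied very little, with an SD of 0.16 on the log2 scale that only 3.37% of all genes undercut. The FVB WT libraries had 215.3, 184.8, 157.6 and 196.7 CPM, Het tumors 174.9, 205.1, 190.0 and 196.7, and Homo tumors 151.2, 176.1, 266.9 and 224.4. Homo held both the lowest and the highest library, and the differences were 0.03 ± 0.16 in Het and 0.09 ± 0.16 in Homo against WT. The ad-Cre livers had 10.3, 1.60 and 2.07 CPM and the ad-ARID1A livers 1.09, 2.77 and 3.32, and their difference of -0.59 ± 0.68 became 0.24 without ad-Cre 1.

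Psat1 was the gene of the 10 with an unadjusted p under 0.05 in both FVB comparisons with WT. WT tumors had 501.5, 402, 357 and 449 CPM, Het tumors 622, 719, 704 and 393, and Homo tumors 568.1, 533.7, 826 and 537.5. Every Homo library and 3 of 4 Het libraries were above every WT library. Het against WT was 0.49 ± 0.20 and Homo against WT 0.52 ± 0.20, and neither passed (limma adjusted p = 0.285 and 0.403). The WT libraries are shared by both comparisons. Psat1 passed in Het against WT when libraries were weighted by their variability (0.58, limma adjusted p = 0.0259). Under that weighting 2287 of the 16140 genes passed, against 4 without it, so the call is not particular to Psat1. Homo against WT was 0.37 without Homo 3. In mixed-strain tumors the same contrast of Het with WT gave 0.02 ± 0.11, with WT at 418 to 656 CPM and Het at 403.5 to 587. Livers had 2.77, 1.69 and 2.17 CPM with ad-Cre and 1.197, 0 and 4.08 with ad-ARID1A (-0.35 ± 0.52).

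Fgf21, the fasting and stress hormone of hepatocytes, was barely read. In mixed-strain tumors it had 0 to 4 reads per library (at most 1.51 CPM), with none in 3 of 8 WT and 5 of 8 Het libraries, and it was not tested there. A count of 0 to 4 at this depth does not allow a comparison of genotypes. In livers it was 2.66, 5.10 and 1.04 CPM with ad-Cre (26, 54 and 9 reads) and 1.31, 3.43 and 5.86 with ad-ARID1A (12, 31 and 53 reads). The groups covered the same range (0.30 ± 0.64, limma adjusted p = 0.882).

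Gdf15, the stress cytokine, was at 21.5 to 66.2 CPM in mixed-strain WT tumors (median 31.4) and 14.0 to 94.0 in Het tumors (median 25.3). The difference was -0.24 ± 0.33, and it ran from -0.49 without Het 5, which had the highest value, to -0.10 without WT 4 as single libraries were left out (-0.55 without WT 2 and Het 5). FVB WT tumors had 9.78, 8.82, 12.9 and 14.2 CPM, Het tumors 17.4, 12.6, 12.3 and 14.9, and Homo tumors 7.57, 22.01, 22.9 and 16.9. The lowest and the 2 highest of the 12 were Homo libraries, and Homo against WT was 0.51 ± 0.31 (limma adjusted p = 0.633). That value was 0.33 without Homo 3, 0.87 without Homo 1 and 0.23 without WT 1 and WT 2, the libraries high in erythroid markers. In livers all 3 ad-ARID1A libraries, 8.69, 5.54 and 5.74 CPM, were above all 3 ad-Cre libraries, 4.82, 3.12 and 5.28. The gap between the nearest libraries was small, and the difference of 0.60 ± 0.29 did not pass (limma adjusted p = 0.433).

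Inhbe, the activin E subunit gene, rose with ad-ARID1A. The ad-ARID1A livers had 77.2, 66.7 and 69.5 CPM and the ad-Cre livers 37.5, 33.6 and 44.0. The lowest ad-ARID1A library was thus well above the highest control. The difference was 0.90 ± 0.12 (95% interval 0.63 to 1.16), and the limma adjusted p was 0.0246. Its p ranked 12 among 14074 genes. Leaving out single libraries gave differences of 0.81 to 1.0 but ended the call in 4 of 6 cases: the adjusted p was 0.0659 without ad-Cre 1, 0.103 without ad-ARID1A 1, 0.0872 without ad-ARID1A 2 and 0.0606 without ad-ARID1A 3, and 0.0382 and 0.0232 without ad-Cre 2 and ad-Cre 3. It was 0.151 when limma's variance trend was turned off and 0.0224 to 0.0333 under the other settings. Inhbc, which lies next to Inhbe on chromosome 10 and encodes the activin C subunit, was 0.16 ± 0.12 (limma adjusted p = 0.624).

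Marker levels differed between these livers as well. All 10 hepatocyte markers were above 0 in both groups, and their sum was 82609 to 89550 CPM with ad-Cre and 71374 to 82516 with ad-ARID1A, lower in the group with more Inhbe. Summed endothelial markers were 299 to 337 CPM against 348 to 378 (7 of 7 above 0), stellate and fibroblast markers 289.5 to 542 against 499 to 599.8 (8 of 8), and macrophage markers 215.5 to 305 against 212 to 282.5 (9 of 9). None of the 6 B and plasma cell markers was in the table, 2 of 7 T and NK cell markers were, and 1 of 10 neutrophil markers was. Myc, the mouse counterpart of the transgene, was 15.2 to 32.0 CPM with ad-Cre and 5.31 to 14.7 with ad-ARID1A (-1.40 ± 0.38, limma adjusted p = 0.175). The part of these differences in the Inhbe value was not tested.

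**Figure D3:**
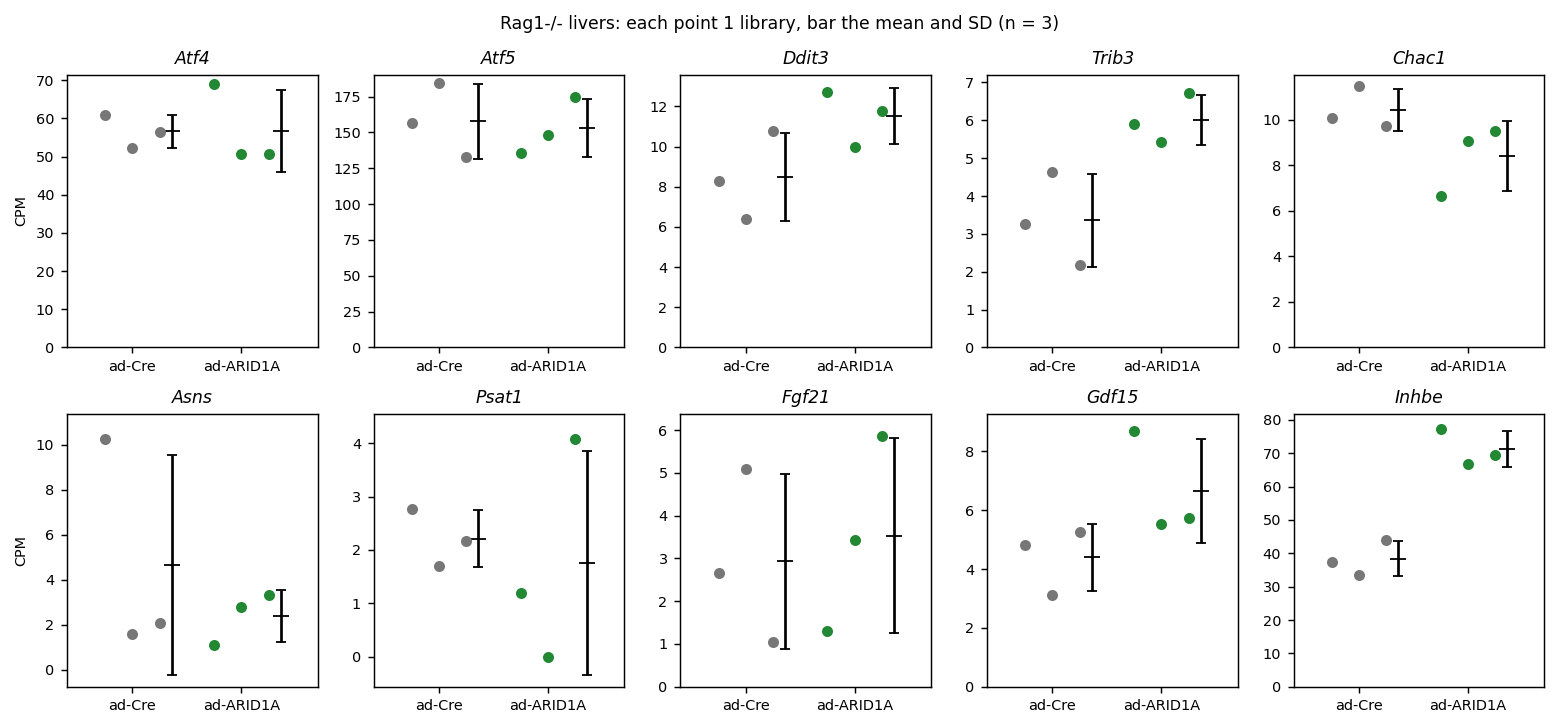
CPM of each of the 10 genes in the 3 ad-Cre and 3 ad-ARID1A livers; each point is a library, the bar beside it the group mean with its SD, and each panel has its own linear axis. Inhbe separates into 33.6 to 44.0 and 66.7 to 77.2 CPM, while Asns, Psat1 and Fgf21 overlap at a few CPM.

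In tumors no difference in Inhbe passed. Mixed-strain WT libraries had 19.97 to 63.0 CPM (median 28.6) and Het libraries 16.2 to 62.1 (median 22.5), a difference of -0.11 ± 0.32. FVB WT tumors had 12.9, 16.3, 15.2 and 16.4 CPM, Het tumors 15.8, 18.8, 19.2 and 17.8, and Homo tumors 15.6, 12.8, 10.3 and 14.1. Every Homo library was below every Het library (-0.45 ± 0.17, limma adjusted p = 1), and the WT libraries overlapped both. Homo against WT was -0.22 ± 0.17 and Het against WT 0.23 ± 0.17. The Homo tumors came from mice about 100 days old and the Het tumors from mice about 70 days old, which cannot be told apart from the genotype.

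Several of the genes varied together from tumor to tumor. After group means were removed, 30 of 36 pairs of the 9 genes had a positive Pearson r over the 16 mixed-strain libraries (median 0.47), and 7 passed over the 36 pairs, all positive, by 100000 permutations within groups. Pairs of other genes were not counted in either set of tumors. Whether such shares are particular to these genes was therefore not tested. Asns and Psat1 were the pair that passed by both measures (r = 0.76, permutation p = 0.0001, adjusted 0.0036; rho = 0.85, p = 4e-05, adjusted 0.00144), and r was 0.75 (p = 0.00193) without the 2 libraries farthest from the median of Asns. The other 6 passing pairs all lay among Atf4, Ddit3, Trib3 and Gdf15, whose 6 possible pairs they are. Atf4 and Trib3 had r = 0.80 (permutation p = 0.00109, adjusted 0.00981) and rho = 0.73 (p = 0.00576, adjusted 0.0518), with r = 0.59 (p = 0.0314) without Het 5 and Het 8. Ddit3 with Trib3 had r = 0.75 (permutation p = 0.00048, adjusted 0.00864) and rho = 0.60 (p = 0.0167), with r = 0.54 (p = 0.0282) without the 2 farthest libraries, and Trib3 with Gdf15 had r = 0.70 (p = 0.00843, adjusted 0.0434) and rho = 0.52 (p = 0.0586), with r = 0.68 (p = 0.00964) without them.

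**Figure D4:**
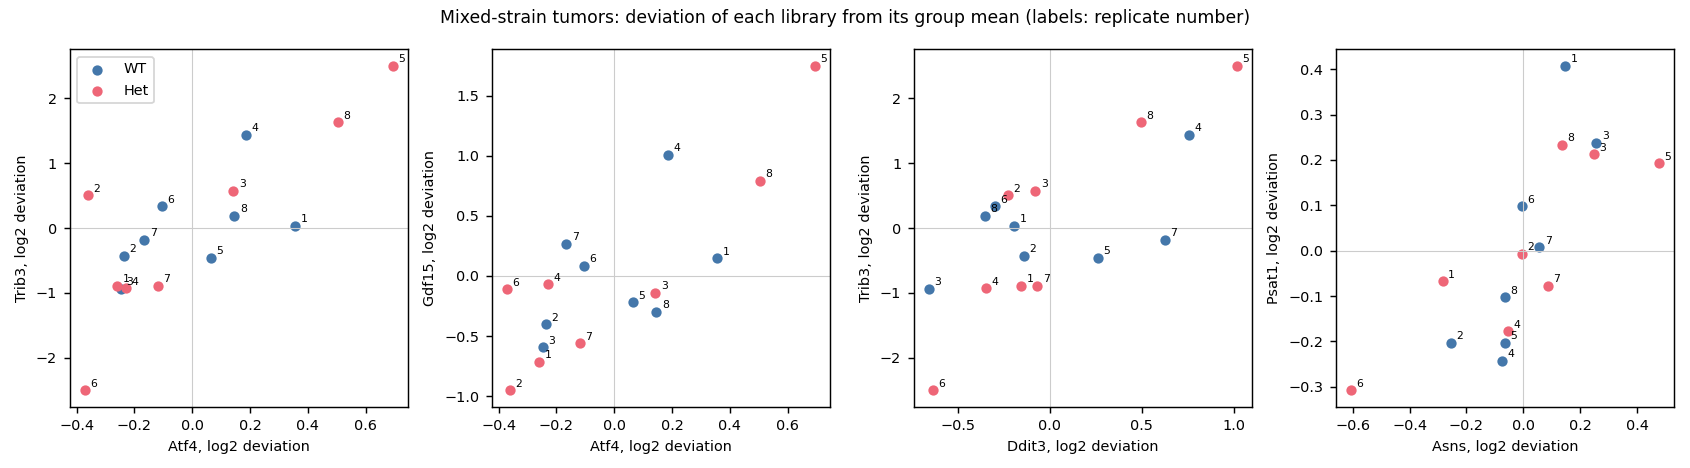
Deviation of each mixed-strain library from its group mean, in log2 units on both axes, for Atf4 and Trib3, Atf4 and Gdf15, Ddit3 and Trib3, and Asns and Psat1; blue points are the 8 WT and red the 8 Het libraries, numbered by replicate. Het 5 and Het 6 lie at opposite ends of the Asns axis and of the Trib3 axes.

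The other 3 pairs had a p above 0.05 without the 2 farthest libraries and to that extent rest on them. Atf4 with Gdf15 had r = 0.79 (permutation p = 0.00183, adjusted 0.0132) and rho = 0.70 (p = 0.005), and r = 0.55 (p = 0.0785) without the 2 libraries farthest out on Atf4. Ddit3 with Gdf15 went from r = 0.78 (permutation p = 0.00074, adjusted 0.00888; rho = 0.54, p = 0.0382) to 0.52 (p = 0.0511), and Atf4 with Ddit3 from 0.67 (p = 0.00699, adjusted 0.0419; rho = 0.58, p = 0.0208) to 0.39 (p = 0.192). Het 5 was the highest of all 16 libraries for Atf4, Trib3, Asns and Gdf15, and Het 6 the lowest for Atf4, Ddit3, Trib3, Asns and Psat1. Het 5 is also the library with 477.5 CPM of biliary markers; the part of that in these values was not tested.

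In the 12 FVB tumors 23 of 36 pairs had a positive r (median 0.33), and none passed over the pairs. The smallest p belonged to Trib3 with Gdf15 (r = 0.85, permutation p = 0.014, adjusted 0.325; rho = 0.76, p = 0.0156), with r = 0.59 (p = 0.119) without the 2 farthest libraries. Homo 3 was the highest FVB library for 6 genes (Atf4, Atf5, Chac1, Asns, Psat1 and Gdf15) and the lowest for Inhbe, and Homo 1 was the lowest for 5 (Atf4, Ddit3, Trib3, Asns and Gdf15). Homo 3 also had 174.6 CPM of summed neutrophil markers and 135.2 CPM of stellate and fibroblast markers, the highest and the lowest of the 12, and their part in its levels was not tested. For Inhbe, 6 of its 8 correlations in mixed-strain tumors and all 8 in FVB tumors were below 0, none of them passing. The FVB signs rested in part on the 2 libraries farthest out on the other gene. Without them r went from -0.71 to -0.07 with Atf4, from -0.57 to 0.06 with Asns and from -0.48 to 0.25 with Trib3. With Psat1 it went from -0.39 to -0.25, and with Atf5 it went the other way, from -0.22 to -0.34. With 6 libraries, 3 a group, the livers were not used for correlations.

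**Figure D5:**
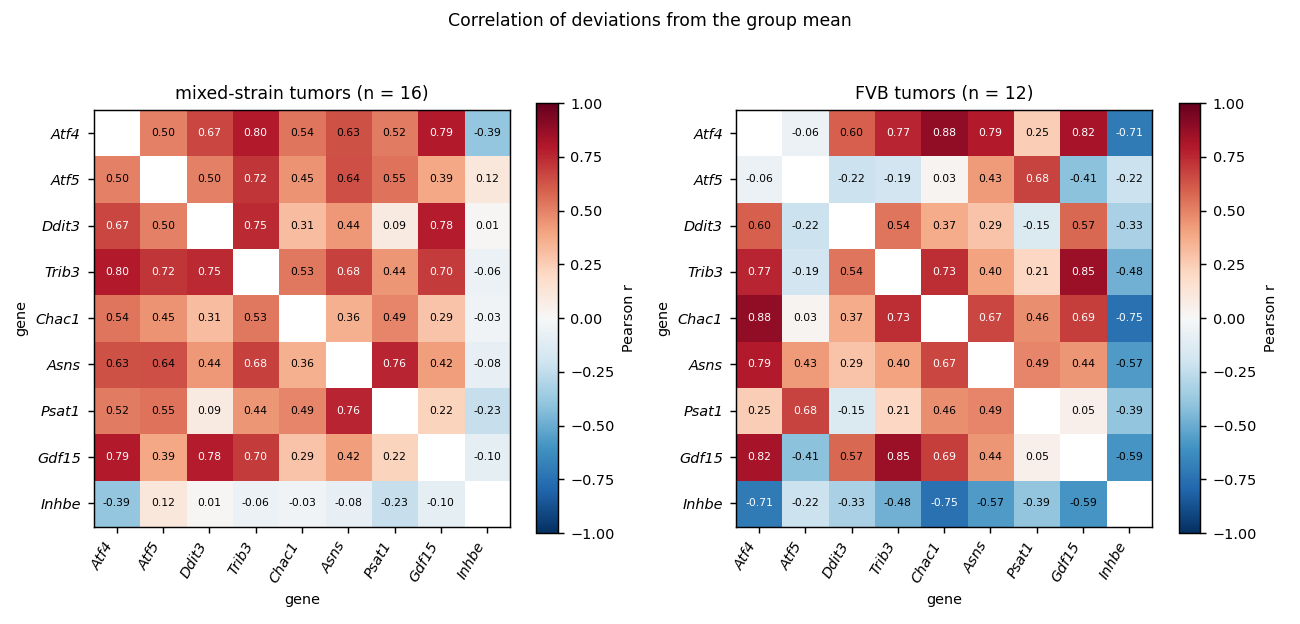
Pearson r between pairs of the genes after group means were removed, in 16 mixed-strain tumors (left) and 12 FVB tumors (right); red is positive and blue negative, and the color bar gives the scale. In the left panel the pairs among Atf4, Ddit3, Trib3 and Gdf15 have r between 0.67 and 0.80. Atf5 with Trib3 (0.72), Trib3 with Asns (0.68) and Asns with Psat1 (0.76) lie in the same range. The Inhbe row is near or below 0 in both panels.

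Outside the 10, the genes with the pattern nearest to Atf4 over the 16 mixed-strain libraries, of 10563 candidates, were Zc3h10 (r = 0.86), Zfp334 (0.86) and Plk2 (0.85). Over the 12 FVB libraries their r was 0.82, 0.43 and 0.73. Nearest to Asns were Il22ra1 (0.92), Sgk2 (0.89) and Cisd3 (0.87), with 0.13, 0.05 and 0.59 in FVB tumors. Nearest to Trib3 were Cblc (0.94), Rusc2 (0.93) and Dusp3 (0.90), with 0.24, 0.25 and 0.63. These are the highest of many values, all points of a table share its normalization, and they are given as a description.

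Another 8 lists of the pathway, 119 genes in all, gave 1 passing gene over the 5 comparisons, 1 of 116 tested in mixed-strain tumors, where 28 of 17552 genes passed. Cbs, which starts transsulfuration from homocysteine, fell in mixed-strain Het tumors (-0.81 ± 0.16, limma adjusted p = 0.0467), with 90.1 to 220.3 CPM in Het and 205.5 to 337 in WT. In that comparison 44 of 116 tested list genes were higher and 72 lower, with a median of -0.08 against 0.05 over all genes. Counts were 80 higher and 34 lower in FVB Het against WT, 77 and 36 in Homo against WT, 59 and 55 in Homo against Het, and 58 and 50 in livers (1 gene at exactly 0 in Homo against WT and in livers), and 0 passed in each. The shares of all genes that passed were 0.16%, 0.0248%, 0.0434%, 0% and 0.32%. At an unadjusted p under 0.05 there were 26, 25, 16, 5 and 16 list genes in the 5 comparisons, in that order, or 22.4%, 21.9%, 14.0%, 4.39% and 14.7% of those tested. The same threshold took 15.8%, 14.2%, 10%, 3.86% and 12.5% of all genes. The last 2 shares lay near these, and whether the other shares differ from those of all genes was not tested. The lists were chosen with earlier results known, and the FVB comparisons share libraries.

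The endoplasmic reticulum chaperone and unfolded protein response list of 20 genes had mostly opposite signs in the 2 sets of tumors. All 20 were lower in mixed-strain Het tumors (median -0.18; Edem1, which helps clear misfolded protein, -0.65 ± 0.20, limma adjusted p = 0.16), where 56.1% of all genes were higher. Summed hepatocyte markers were 5618 to 12520 CPM (median 6868) in those WT tumors and 3106 to 6791 (median 6313) in Het, with 10 of 10 above 0 in both, and summed neutrophil markers were 14.79 to 192.1 CPM (median 44.8) and 6.06 to 60.3 (median 8.54), with Ly6g at 0 in Het. Their part in the list's values was not tested. In FVB tumors 16 were higher in Het (12 with libraries centred on their median) and 20 in Homo against WT, where 52.6% and 46.6% of all genes were (list median 0.20 in Homo; Xbp1, the factor of the IRE1 branch, 0.69 ± 0.19, limma adjusted p = 0.246). Without WT 1 and WT 2, an alternative chosen after seeing the data, 11 were higher in Het and 13 in Homo. FVB neutrophil markers summed to 2.53 to 129.3 CPM in WT, 0 to 1.19 in Het and 1.80 to 174.6 in Homo, and their part was not tested. Each FVB marker at or below 1 CPM counts as 0 in these sums, and the mixed-strain sums have no such floor. None passed, and whether the 2 strains differ was not tested. Livers had 10 higher and 10 lower (5 and 15 after centring), with the co-chaperone gene Dnajb9 at 0.89 ± 0.21 (limma adjusted p = 0.142).

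Amino acid transport and serine, glycine, proline and transsulfuration genes had 17 of 19 higher in FVB Het tumors (median 0.31) and 15 of 19 in Homo tumors (median 0.18) against WT. Of all genes 52.6% and 46.6% were higher there. The list counts were 15 and 15 with libraries centred on their median, and 15 and 14 without WT 1 and WT 2. Phgdh, which catalyzes the step before Psat1, was 0.33 ± 0.10 in Het (limma adjusted p = 0.177), and Shmt1, which makes glycine from serine, was 0.40 ± 0.11 (limma adjusted p = 0.143). In mixed-strain tumors the same list had 11 of 20 higher and in livers 7 of 16 (8 and 3 after centring). Among the eIF2 kinases, phosphatase subunits and eIF2B genes, Eif2ak3, the kinase PERK, was 0.62 ± 0.21 in FVB Het tumors (limma adjusted p = 0.206), and in livers Ppp1r15b, a subunit of the eIF2 phosphatase, was 0.36 ± 0.10 and Eif2ak3 0.41 ± 0.13 (limma adjusted p = 0.175 and 0.263). Aminoacyl-tRNA synthetases had 10 of 12 higher in mixed-strain Het tumors (7 after centring, 5 without WT 2 and Het 5), where 56.1% of all genes were. In livers 4 of 12 were higher, where 66.0% of all genes were, and Tars was -0.33 ± 0.08 (limma adjusted p = 0.15).

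Other hepatokines were lower in mixed-strain Het tumors for 13 of 14 genes (median -0.71), among them Enho, for adropin, at -1.79 ± 0.41 (limma adjusted p = 0.0824) and Tsku at -1.23 ± 0.30 (limma adjusted p = 0.103). Summed hepatocyte and neutrophil markers, given above, had lower medians in those Het tumors too, and their part in these values was not tested. In FVB Het tumors 7 of 14 hepatokines were higher, with Angptl4, an inhibitor of lipoprotein lipase, at 1.0 ± 0.24 (limma adjusted p = 0.0975) and Igf1 at -1.14 ± 0.31 (limma adjusted p = 0.134). In livers 8 of 14 were higher and 5 lower (7 and 7 after centring), with Igfbp1 at -1.44 ± 0.32 (limma adjusted p = 0.119) and Angptl8 at 0.89 ± 0.22 (limma adjusted p = 0.156). Receptors and partners of these hormones had 6 of 14 higher in mixed-strain Het tumors (median -0.09) and 9 of 14 higher in FVB Het tumors (median 0.24). The 2 with the smallest p went the other way from most in FVB: Fgfr2 was -1.97 ± 0.66 in mixed-strain and -1.73 ± 0.40 in FVB Het tumors (limma adjusted p = 0.181 and 0.0975), and Inhba, an activin subunit, was -0.91 ± 0.35 and -1.06 ± 0.29 (limma adjusted p = 0.235 and 0.132).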

How the data were processed

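The values of 34 RNA sequencing libraries came from 3 tables of log2 values deposited by the authors. Of the tools, the submitters' processing notes list Trim Galore, HISAT2, SAMtools and featureCounts, with the build GRCm38 (mm10) and no versions. Library strand is not stated there, so reads of overlapping antisense genes cannot be told apart. The mixed-strain table is named RPKM, but its deposited log2 values summed to 999553 to 999898 per library after back-transformation with 1 subtracted, as log2(CPM + 1) does, so they were used as CPM. The test planned for it used log2(value + 0.5) and a mean of at least 0.5, which left 17552 of 46528 genes. The FVB and Rag1-/- tables hold log2 CPM with values at or below 1 CPM listed at 0, and all 16140 and 14074 genes were tested. Both scales understate changes of low genes. Depth was read from the size of 1 read in the low values, whole within 0.1 reads for 100% of those examined.

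Each table was fitted alone with limma 3.58.1 in R 4.3.3 (lmFit, eBayes with trend, two-sided, Benjamini-Hochberg under 0.05), the 3 FVB groups in a single fit, and the fit was tested on simulated data. The treatment text gives Het and Homo in the same words, so groups follow the genotype field. The ad-ARID1A columns were matched by their number, since the sample descriptions give those numbers under ad-Cre. The genes and lists were chosen with earlier results of these data known. The text names the 10 genes, list genes that passed or were among the 2 with the smallest p of a list, the 3 genes nearest in pattern to Atf4, Asns and Trib3, and Arid1a and Myc. Inhbc was named in addition, as the neighbor of Inhbe, after its value was seen. Same-numbered libraries did not deviate together throughout, and the labels give them no shared source, so no pairing was used. The best match had the same number for 1 of 8 mixed-strain WT libraries and 1 of 3 ad-Cre livers. In FVB tumors that held for 2 of 4 libraries in each comparison with WT and for 0 of 4 in Homo against Het. Promoters are from RefSeq (GRCm38.p6), with a window for all 10 genes.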

Additional observations from a re-analysis of the deposited data

Results flagged for a closer look

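Psat1 in FVB Homo replicate 3 stood far from the other libraries of its group, at 826 CPM against 533.7 to 568.1 in the other 3. On the log2 scale, the gap to the nearest library was 0.857 of the group's range, above Dixon's 95% critical value of 0.829 for 4 samples. It was the 1 outlying library found in 45 groups of tumors for the 9 genes tested there, and chance flags about 1 in 20 groups. Chac1 in FVB Het, at 0 in all 4 libraries, is among the 45 but could give no outlier. Fgf21 and the livers were not included. Without that library Psat1 in Homo against WT was 0.37, against 0.52 with it, and neither passed by limma.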

How the results depend on the processing

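Of 897 values of single genes of the 10 under alternatives, 890 kept their side of the threshold and stayed within the spread, 5 lost the call (all Inhbe in livers), 1 gained it (Psat1 in FVB Het against WT with array weights) and 1 moved by more than the spread (Asns in livers, 0.24 without ad-Cre 1). None reversed while called, and 48 values over 19 of 46 genes and comparisons changed sign, none of them called. The number of the 10 that passed was 1 in FVB Het against WT with array weights, against 0. In livers it was 0 without the variance trend and 0 to 1 when single libraries were left out, against 1. Counts over all genes depended strongly on the setting. For mixed-strain Het against WT (28) they were 14 with no filter, 16 without WT 2 and Het 5, 101 with array weights and 8 to 138 when single libraries were left out. For FVB Het against WT (4) they were 0 at a mean log2 CPM of at least 2, 0 on log2(CPM + 1), 21 with Gm26917 out of the total, 2 with the 2 groups alone, 1 without WT 1 and WT 2, 8 with libraries centred on the median, 2287 with array weights and 0 to 281 when single libraries were left out. For FVB Homo against WT (7) they were 0, 3 and 0 under the stricter filter, log2(CPM + 1) and the 2 groups alone, 2 without WT 1 and WT 2, 21 with array weights and 0 to 51 when single libraries were left out. For Homo against Het (0) leaving out single libraries gave 0 to 3. For livers (45) the count was 1 without the variance trend and 6 to 32 when single libraries were left out. With the replicate number as a block the counts were 75, 0 and 1 in mixed-strain Het, FVB Het and FVB Homo against WT, and no call of the 10 genes changed. The labels give no shared source for the same numbers, and same-numbered libraries correlated at -0.21 to 0.30 in mixed-strain tumors, -0.36 to 0.40 in FVB tumors and -0.02 to 0.09 in livers, and not every library correlated best with its own number. The causes of these changes were not tested. Counts and medians of lists without WT 2 and Het 5, or WT 1 and WT 2, were added after seeing the data. Depth limited Fgf21 and Chac1 in tumors.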
